A study of Mus musculus with 16 samples.

Results

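Ribosome biogenesis and nucleolar genes encode the proteins that transcribe ribosomal RNA in the nucleolus, modify and cut it, and assemble it with ribosomal proteins into the small and large ribosomal subunits. The list held 42 such genes, named for their known roles, and 40 of them were measured among 16427 genes tested on the array. Each was read from the probe that carries its symbol alone, or from the brightest such probe on average where there were several. Ppan was left out because its probe shares 2 symbols, and Noc2l because the probe table pairs no probe with that symbol. All 40 measured genes lay above the 25th percentile of all probes on each of the 16 arrays, so none entered through 1 group only.

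The arrays came from naive CD4+ T cells of B6 mice, sorted from spleen and lymph nodes as CD62Lhi and CD25-, and kept for 24 h in medium with 10% serum together with antibody-coated latex beads. KO_CD3CD28 cells lacked Dec1 and met beads with anti-CD3 and anti-CD28, whereas KO_CD3 cells lacked Dec1 and met beads with anti-CD3 alone. WT_CD3CD28 and WT_CD3 were the wild-type cells given the same 2 kinds of bead. Each group had 4 arrays, so that every comparison set 4 arrays against 4. All groups were stimulated, and there was no unstimulated group among them. The Dec1 allele, the age and the sex of the mice, and whether replicates came from separate animals are not given in the sources used here, so p-values measure only the spread between these arrays, part of which may be technical.

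Dec1, the product of Bhlhe40, is a transcription factor of the basic helix-loop-helix family that mostly represses its targets, and anti-CD28 engages the costimulatory receptor that strengthens the signal of the T cell receptor. A naive T cell is small and makes few ribosomes. After activation it grows before it divides, its nucleoli enlarge, and the supply of ribosomes sets how much protein it can make. RNA polymerase I transcribes the long ribosomal precursor, small nucleolar ribonucleoproteins (snoRNPs) guide its chemical modification, and separate sets of assembly factors mature the small and the large subunit. MYC is a well known activator of these genes in growing lymphocytes, and it binds the E-box CACGTG, a hexamer that DEC1 can also bind.

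Because the genes share a process, their promoters were searched for CACGTG, whose reverse complement reads the same. The window ran from 250 bases before to 50 bases after each annotated start (RefSeq, GRCm38.p6), and entries were found for 35 of the 40 genes. Npm1, Bop1, Fbl, Rrs1 and Rrp12 had no entry. The hexamer was in the window of 9 genes, or 25.7% of the 35, while it was in 8.09% of all 27025 genes of the table and in 10.5% of the 12877 tested genes with an entry. The 30 bases that hold each match are shown in the direction of transcription with the hexamer in capitals, to let its position and flanks be compared.
Imp4 (chr1:34439696-34439725, plus strand): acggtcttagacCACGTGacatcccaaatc
Nop2 (chr6:125131811-125131840, plus strand): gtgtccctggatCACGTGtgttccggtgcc
Ltv1 (chr10:13193092-13193121, minus strand): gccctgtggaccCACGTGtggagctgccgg
Utp20 (chr10:88826765-88826794, minus strand): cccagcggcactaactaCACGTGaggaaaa
Pes1 (chr11:3963965-3963994, plus strand): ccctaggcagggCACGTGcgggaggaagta
Tsr1 (chr11:74898092-74898121, plus strand): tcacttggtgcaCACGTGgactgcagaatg
Nle1 (chr11:82908355-82908384, minus strand): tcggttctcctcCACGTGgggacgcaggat
Rrn3, distal (chr16:13780472-13780501, plus strand): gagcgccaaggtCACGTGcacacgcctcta
Rrn3, proximal (chr16:13780639-13780668, plus strand): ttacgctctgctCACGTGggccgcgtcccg
Wdr43 (chr17:71616220-71616249, plus strand): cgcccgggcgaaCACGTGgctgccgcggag

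With the first base of the annotated start as position 1, the match began at -121 in Imp4 and at -60 in Nop2. It began after the start, between positions 3 and 38, in Ltv1, Utp20, Pes1, Tsr1, Nle1 and Wdr43. For Nle1 and Wdr43 the start used lies inside the gene and not at its outer end. Rrn3, which recruits RNA polymerase I to the ribosomal promoter, was the only one of the 9 genes with 2 matches, at -215 and -48. The 250 bases before its start show both.
Rrn3 upstream (chr16:13780449-13780698, plus strand): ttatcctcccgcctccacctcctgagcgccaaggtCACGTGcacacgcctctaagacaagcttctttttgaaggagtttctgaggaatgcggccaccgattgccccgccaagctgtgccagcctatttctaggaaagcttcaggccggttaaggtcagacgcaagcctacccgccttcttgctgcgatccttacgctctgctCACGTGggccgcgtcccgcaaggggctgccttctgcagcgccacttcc
A match is a description of the letters and not a measured site, and its absence says only that these letters are not in this window.

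As a check of the labels, Bhlhe40 averaged 5.88 ± 0.14 in KO_CD3CD28 and 9.51 ± 0.71 in WT_CD3CD28, and 5.53 ± 0.32 in KO_CD3 and 7.56 ± 0.42 in WT_CD3 (log2 signal, SD, n = 4 each). The cells carried T cell identity transcripts, with a mean of 10 markers between 10.7 and 11.5 on the arrays, while 6 B cell markers averaged 6.02 to 6.72, 8 myeloid and dendritic markers 5.79 to 6.70, 5 CD8 and NK cell markers 7.39 to 8.15 (the brightest, Cd8b1, at 9.11), 3 erythroid and platelet markers 6.68 to 7.21 and 3 regulatory T cell markers 8.51 to 9.71. In bulk RNA, fewer cells that express a gene and less of its RNA per cell cannot be told apart. Within groups, Xist, an RNA made from the inactive X chromosome, and Kdm5d, a gene of the Y chromosome, were high on opposite arrays, so the arrays of a group did not all hold RNA of one source. Knockout replicates 2 and 4 and wild-type replicate 1 had Xist between 10.44 and 11.36 and Kdm5d between 5.69 and 6.15, while the other arrays had Xist between 5.09 and 5.80 and Kdm5d between 9.62 and 10.12. In another division, replicates 1 and 2 stood apart from replicates 3 and 4 on the first component of the deviations from the group means, which held 39.6% of their variance. The labels do not call these sets batches.

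The 40 genes were highest with CD28 engagement in both genotypes and lowest in knockout cells without it. Their mean log2 signal was 10.65 ± 0.24 in KO_CD3CD28 and 9.78 ± 0.17 in KO_CD3, and 10.70 ± 0.21 in WT_CD3CD28 and 10.14 ± 0.15 in WT_CD3 (SD, n = 4 arrays). The mean on single arrays was 10.42 to 10.89 in KO_CD3CD28 and 9.58 to 9.98 in KO_CD3, and 10.44 to 10.88 in WT_CD3CD28 and 9.94 to 10.28 in WT_CD3. The arrays with both antibodies lay above those with anti-CD3 alone in each genotype, and the KO_CD3 and WT_CD3 ranges overlapped. Within groups, 36 of the 40 genes were higher on average in replicates 1 and 2 than in 3 and 4. The other 4 (Npm1, Ncl, Nop10 and Dkc1) were lower. The median difference over the 40 genes was 0.30, and it was not computed over all genes. The pooled SD within groups ran from 0.10 for Dkc1 to 0.67 for Rrp9, so small changes were measurable for some genes and not for others.

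The first question was whether CD28 engagement changed these genes in knockout cells. It did for most of them: 35 of 40 rose and 0 fell by limma with a Benjamini-Hochberg adjusted p under 0.05 over all 16427 genes. Over all genes tested 20.4% rose and 17.6% fell. The median change of the 40 genes was 0.93 on the log2 scale, against -0.06 over all genes, and single genes ran from 0.17 for Ncl to 1.48 for Mrto4. The KO_CD3CD28 and KO_CD3 arrays did not overlap for 31 genes, all higher, as was so for 18.7% of all genes. With the replicate number as a block, 38 rose, against 23.3% of all genes. The difference was above 0 in each of the 4 replicate numbers for 38 genes, as it was for 24.4% of all genes. All 40 estimates were above 0, against 41% of all genes. Replicates 1 and 2 alone gave 38 genes higher (25.6% of all genes) and replicates 3 and 4 alone 29 (11% of all genes). After median centring of the arrays the median change over all genes was 0.07, 36 of the 40 genes rose, and 75.0% of all genes that passed were higher, against 53.8% before it.

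In wild-type cells CD28 engagement raised 25 of the 40 genes and lowered 0, while 16% of all genes rose and 13% fell. The median change was 0.59 on the log2 scale, against -0.03 over all genes, with single genes between 0.14 for Ncl and 1.00 for Rrp1b. The arrays of WT_CD3CD28 and WT_CD3 did not overlap for 23 genes, all higher, against 16.2% of all genes. Blocking on the replicate number brought the count to 32, with 18.8% of all genes. The additional genes were Polr1a, Nob1, Rrp12, Bop1, Pes1, Wdr12 and Nop2. All 40 estimates were above 0, against 44.6% of all genes. Replicates 1 and 2 alone gave 36 genes higher (21.1% of all genes) and replicates 3 and 4 alone 21 (8.85%), and median centring gave 29, with the all-gene median at 0.06 and 69.3% of all genes that passed higher, against 55.1% before it. A gene past the threshold in 1 genotype only is not thereby shown to respond differently in the other.

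Markers of cell types and of division moved between the same groups. Of all genes tested, 20.4% rose and 17.6% fell in knockout, and 16% rose and 13% fell in wild type. Of 10 T cell identity markers 1 rose and 5 fell in knockout, and 1 rose and 7 fell in wild type. Their mean was 10.81 to 10.98 in KO_CD3CD28 and 11.12 to 11.38 in KO_CD3, and 10.69 to 11.11 in WT_CD3CD28 and 11.26 to 11.51 in WT_CD3. Of 5 CD8 and NK cell markers 3 rose and 2 fell in each genotype, and their mean was 7.57 to 7.80 in KO_CD3CD28 and 7.91 to 8.15 in KO_CD3, and 7.39 to 7.65 in WT_CD3CD28 and 7.80 to 7.89 in WT_CD3. The count that fell was 4 of 6 B cell markers, 5 of 8 myeloid and dendritic markers and 2 of 3 erythroid and platelet markers in knockout, and 3, 3 and 0 in wild type, with 0 higher. All 3 regulatory T cell markers, among them the activation marker Il2ra, rose in knockout and 2 in wild type. Mki67, a marker of dividing cells that was added with earlier results known, was 10.59 to 11.02 in KO_CD3CD28 and 6.37 to 7.86 in KO_CD3, and 10.83 to 11.38 in WT_CD3CD28 and 7.56 to 8.62 in WT_CD3. The part of these markers in the rise of the 40 genes was not tested.

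**Figure D1:**
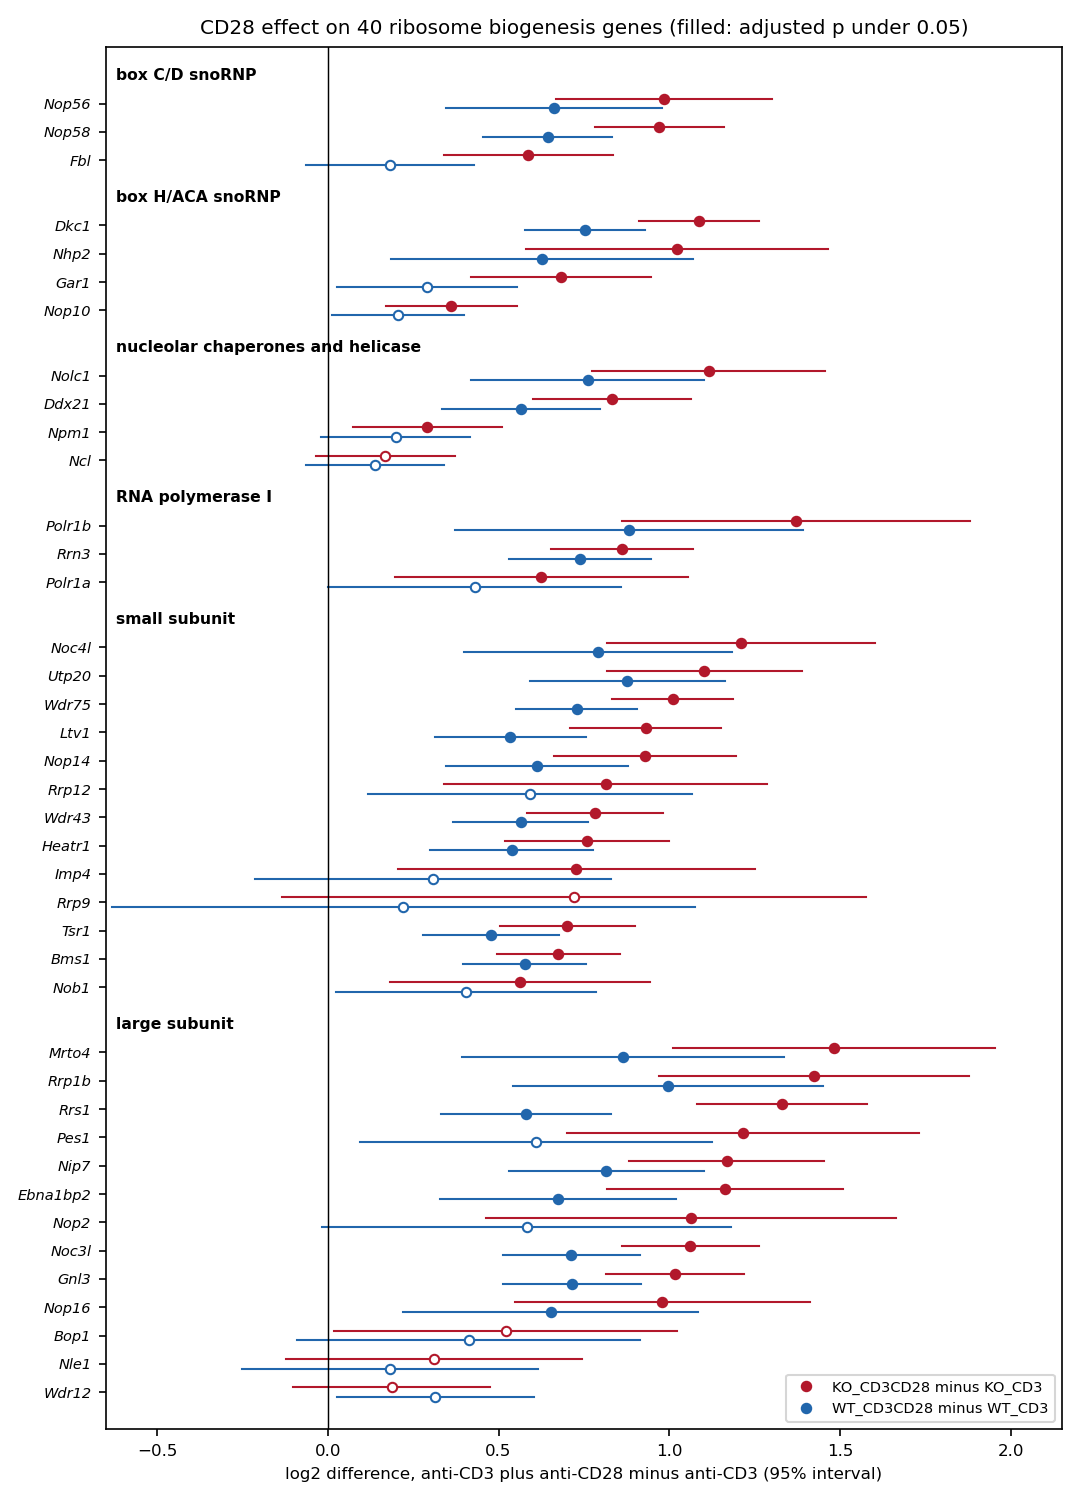
CD28 effect on each of the 40 genes as a log2 difference with its 95% interval, for KO_CD3CD28 minus KO_CD3 (red) and WT_CD3CD28 minus WT_CD3 (blue), grouped by role. All 40 estimates of each genotype lie above 0, and filled points mark an adjusted p under 0.05, 35 in knockout and 25 in wild type.

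RNA polymerase I is the enzyme that begins the process. Polr1b, one of its catalytic core subunits, had log2 signals of 10.38, 10.25, 9.58 and 9.68 in KO_CD3CD28 and 9.02, 8.83, 8.54 and 8.01 in KO_CD3 (replicates 1 to 4 in order, as in all lists that follow). In wild-type cells it had 10.42, 10.35, 9.90 and 9.53 in WT_CD3CD28 and 9.45, 9.36, 9.09 and 8.77 in WT_CD3. Neither pair of groups overlapped. The change was 1.37 ± 0.24 in knockout (log2, SE, adjusted p = 0.000235) and 0.88 ± 0.24 in wild type (adjusted p = 0.00994). Rrn3, the initiation factor shown above, rose by 0.86 ± 0.10 in knockout and 0.74 ± 0.10 in wild type. Polr1a, the largest subunit, had 10.58, 10.46, 9.88 and 9.94 in KO_CD3CD28 and 9.94, 9.82, 9.67 and 8.94 in KO_CD3. The lowest of its KO_CD3CD28 arrays lay below the highest of its KO_CD3 arrays, and it rose by 0.63 ± 0.20 (adjusted p = 0.0221). Its wild-type signals were 10.50, 10.58, 10.19 and 9.96 in WT_CD3CD28 and 10.06, 9.92, 9.82 and 9.71 in WT_CD3. That difference of 0.43 ± 0.20 missed the threshold (adjusted p = 0.131) and passed it with the block (adjusted p = 0.00714).

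Box C/D snoRNPs methylate ribosomal RNA, with Nop56 and Nop58 as their scaffold and Fbl (fibrillarin) as the methyltransferase. All 3 rose in knockout cells, and 2 of 3 in wild type, where 20.4% and 16% of all genes rose. Nop56 had 12.22, 12.20, 11.71 and 11.89 in KO_CD3CD28 and 11.29, 11.25, 11.02 and 10.53 in KO_CD3. It had 12.29, 12.24, 12.06 and 12.16 in WT_CD3CD28 and 11.60, 11.56, 11.62 and 11.32 in WT_CD3. These groups did not overlap within either genotype, and the change was 0.98 ± 0.15 in knockout and 0.66 ± 0.15 in wild type. Fbl had 12.21, 12.15, 12.02 and 11.98 in KO_CD3CD28 and 11.75, 11.48, 11.55 and 11.23 in KO_CD3, a rise of 0.59 ± 0.12 (adjusted p = 0.000701). In WT_CD3CD28 it had 12.03, 12.11, 12.05 and 11.66, and in WT_CD3 11.88, 11.80, 11.83 and 11.60, which overlapped. The wild-type difference was 0.18 ± 0.12 (adjusted p = 0.279). A dimmer Fbl probe, fitted by limma with all 17930 kept probes, gave 0.20 in knockout (adjusted p = 0.113) and 0.03 in wild type. The call for Fbl in knockout thus held for only 1 of its 2 probes.

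Box H/ACA snoRNPs turn uridine into pseudouridine, with Dkc1 (dyskerin) as the synthase and Gar1, Nhp2 and Nop10 as its partners. These 4 proteins also belong to telomerase. All 4 genes rose in knockout cells, and Dkc1 and Nhp2 in wild type, where 20.4% and 16% of all genes rose. Dkc1, on chromosome X, had 11.34, 11.22, 11.18 and 11.28 in KO_CD3CD28 and 10.17, 10.00, 10.24 and 10.26 in KO_CD3. It had 11.26, 11.37, 11.18 and 11.48 in WT_CD3CD28 and 10.57, 10.60, 10.63 and 10.48 in WT_CD3. The gaps between the stimuli were wide against a spread of 0.06 to 0.13 (SD) within groups, and the rise was 1.09 ± 0.08 in knockout and 0.75 ± 0.08 in wild type. Nop10 changed least in this set, with 12.18, 12.18, 12.18 and 12.14 in KO_CD3CD28 and 11.66, 11.64, 11.83 and 12.10 in KO_CD3. It rose by 0.36 ± 0.09 (adjusted p = 0.00465), and KO_CD3 replicate 4, at 12.10, lay close to the KO_CD3CD28 arrays. In WT_CD3CD28 it had 12.13, 12.12, 12.09 and 11.99 and in WT_CD3 11.96, 11.88, 11.90 and 11.77, which did not overlap although the difference of 0.20 ± 0.09 missed the threshold (adjusted p = 0.108).

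Nolc1 is a chaperone of snoRNPs, Ddx21 an RNA helicase, and Ncl (nucleolin) and Npm1 (nucleophosmin) are abundant multifunctional nucleolar proteins. Nolc1 had 11.15, 11.23, 10.55 and 10.76 in KO_CD3CD28 and 10.12, 9.96, 9.63 and 9.50 in KO_CD3. It had 11.18, 11.11, 10.86 and 10.69 in WT_CD3CD28 and 10.27, 10.33, 10.17 and 10.03 in WT_CD3. Both gaps were free of overlap, with rises of 1.12 ± 0.16 in knockout and 0.76 ± 0.16 in wild type. Ddx21 rose by 0.83 ± 0.11 and 0.57 ± 0.11 in the same comparisons. Ncl had 12.27, 12.42, 12.39 and 12.36 in KO_CD3CD28 and 12.10, 12.25, 12.03 and 12.37 in KO_CD3. It had 12.13, 12.46, 12.44 and 12.50 in WT_CD3CD28 and 12.12, 12.20, 12.31 and 12.33 in WT_CD3. All 4 groups of Ncl overlapped, and its differences of 0.17 ± 0.10 in knockout (adjusted p = 0.181) and 0.14 ± 0.10 in wild type (adjusted p = 0.327) did not pass. The interval of the knockout difference reached 0.37. The mean of the Ncl probe was at the 99.5th percentile of the tested genes, each taken by its brightest probe. Whether so high a signal limits the change that can be measured was not tested. Npm1 rose by 0.29 ± 0.10 in knockout (adjusted p = 0.0341), and its wild-type difference was 0.20 ± 0.10 (adjusted p = 0.172). Both genes passed in wild type when each array was centred on its median, and Ncl did so in knockout too.

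The small subunit processome and the later maturation factors contributed 13 genes, of which 12 rose in knockout cells and 9 in wild type. The shares of all genes that rose were 20.4% and 16%. The median change of the 13 genes was 0.78 in knockout and 0.56 in wild type (log2). Noc4l, a partner of Nop14 in early assembly, changed most in knockout, with 9.75, 9.67, 9.23 and 9.21 in KO_CD3CD28 and 8.63, 8.33, 8.23 and 7.83 in KO_CD3. In wild-type cells it had 9.79, 9.70, 9.57 and 8.99 in WT_CD3CD28 and 8.90, 8.74, 8.76 and 8.49 in WT_CD3. The groups did not overlap in either genotype, and the rise was 1.21 ± 0.19 in knockout and 0.79 ± 0.19 in wild type. Utp20, a large scaffold of the processome, had 10.57, 10.49, 10.24 and 10.24 in KO_CD3CD28 and 9.48, 9.39, 9.23 and 9.03 in KO_CD3. It had 10.59, 10.67, 10.22 and 10.50 in WT_CD3CD28 and 9.88, 9.69, 9.61 and 9.28 in WT_CD3, and it rose by 1.10 ± 0.14 in knockout and 0.88 ± 0.14 in wild type, again without overlap.

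Nob1, the nuclease that makes the last cut of the small subunit RNA, had 10.02, 9.93, 9.30 and 9.31 in KO_CD3CD28 and 9.27, 9.11, 8.99 and 8.95 in KO_CD3. It had 10.00, 10.04, 9.64 and 9.32 in WT_CD3CD28 and 9.56, 9.43, 9.32 and 9.06 in WT_CD3. The knockout gap was narrow, between 9.30 and 9.27, with a rise of 0.56 ± 0.18 (adjusted p = 0.0203), while the wild-type groups overlapped and the difference of 0.40 ± 0.18 passed with the block alone (adjusted p = 0.00404). Heatr1, Wdr43 and Wdr75, whose yeast counterparts join the precursor first, rose by 0.76 ± 0.11, 0.78 ± 0.09 and 1.01 ± 0.08 in knockout. Bms1, a GTPase, rose by 0.67 ± 0.09, and Tsr1, Ltv1, Rrp12, Nop14 and Imp4 rose by 0.70 to 0.93. Rrp9, a protein of the U3 snoRNP, was the exception, with 9.74, 9.54, 8.03 and 8.20 in KO_CD3CD28 and 8.72, 8.52, 7.85 and 7.55 in KO_CD3. It had 9.79, 9.54, 9.25 and 7.94 in WT_CD3CD28 and 9.16, 8.96, 8.88 and 8.64 in WT_CD3. The set of replicates moved this gene more than the stimulus did, and its knockout difference of 0.72 ± 0.41 did not pass (adjusted p = 0.172). With the block it passed (adjusted p = 0.0148). Its wild-type difference was 0.22 ± 0.41 (adjusted p = 0.743).

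Factors of the large subunit were 13 measured genes, of which 10 rose in knockout cells and 8 in wild type. Their medians were 1.06 and 0.65 (log2), and 20.4% and 16% of all genes rose. Mrto4, which holds the place of a stalk protein in the young subunit, had 10.74, 10.66, 9.97 and 10.05 in KO_CD3CD28 and 9.26, 9.00, 8.71 and 8.52 in KO_CD3. It had 10.64, 10.63, 10.26 and 9.74 in WT_CD3CD28 and 9.75, 9.58, 9.38 and 9.10 in WT_CD3, where the lowest array with CD28 engagement lay just below the highest without. The rise was 2.79-fold in knockout (log2 1.48 ± 0.22, adjusted p = 5.2e-05) and 1.82-fold in wild type (log2 0.86 ± 0.22, adjusted p = 0.00681). Rrp1b, a nucleolar protein related to a yeast large subunit factor, had 10.47, 10.43, 9.74 and 9.74 in KO_CD3CD28 and 9.04, 8.97, 8.36 and 8.32 in KO_CD3. It had 10.47, 10.51, 10.04 and 9.96 in WT_CD3CD28 and 9.53, 9.36, 9.26 and 8.84 in WT_CD3, and its rise without overlap was 1.42 ± 0.21 in knockout and 1.00 ± 0.21 in wild type.

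Rrs1, which helps dock the small ribosomal RNA of the large subunit, was tightly measured in knockout cells. It had 9.74, 9.66, 9.63 and 9.61 in KO_CD3CD28 and 8.35, 8.35, 8.29 and 8.33 in KO_CD3. It had 9.83, 9.64, 9.60 and 9.23 in WT_CD3CD28 and 9.24, 8.77, 9.14 and 8.83 in WT_CD3. The wild-type groups overlapped by 1 array on each side, and the rise was 1.33 ± 0.12 in knockout and 0.58 ± 0.12 in wild type. Nip7, an RNA-binding assembly factor, had 10.74, 10.59, 10.44 and 10.46 in KO_CD3CD28 and 9.48, 9.06, 9.56 and 9.46 in KO_CD3. It had 10.59, 10.70, 10.37 and 10.03 in WT_CD3CD28 and 9.73, 9.59, 9.63 and 9.48 in WT_CD3, and it rose by 1.17 ± 0.14 in knockout and 0.82 ± 0.14 in wild type. Gnl3 (nucleostemin), Noc3l, Nop16, Nop2 and Ebna1bp2 rose by 0.98 to 1.16 in knockout.

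Pes1, Bop1 and Wdr12 form 1 complex of the large subunit, and in the fit without the block only Pes1 passed, in knockout. Pes1 had 10.22, 10.14, 9.47 and 9.54 in KO_CD3CD28 and 9.04, 8.96, 8.75 and 7.76 in KO_CD3. It had 10.30, 10.14, 9.87 and 9.69 in WT_CD3CD28 and 9.64, 9.41, 9.44 and 9.07 in WT_CD3. It rose by 1.22 ± 0.24 in knockout, and in wild type its difference of 0.61 ± 0.24 passed only with the block (adjusted p = 0.0724 without it and 0.00255 with it). Bop1 differed by 0.52 ± 0.24 in knockout and 0.41 ± 0.24 in wild type, and passed in both with the block (adjusted p = 0.00555 and 0.0265). Wdr12 had 11.30, 11.23, 10.98 and 11.02 in KO_CD3CD28 and 11.05, 11.26, 10.82 and 10.65 in KO_CD3. It had 11.23, 11.17, 10.87 and 10.82 in WT_CD3CD28 and 10.96, 10.75, 10.58 and 10.55 in WT_CD3. Both pairs of groups overlapped, and its differences of 0.19 ± 0.14 in knockout (adjusted p = 0.296) and 0.32 ± 0.14 in wild type (adjusted p = 0.0981) did not pass, though with the block it passed in wild type (adjusted p = 0.00448) and not in knockout (adjusted p = 0.0599). Another probe for Wdr12 gave 0.05 and 0.31. Nle1, which acts with a large remodelling ATPase, differed by 0.31 ± 0.21 in knockout and 0.18 ± 0.21 in wild type, and passed with the block in knockout alone (adjusted p = 0.0219). The differences among Pes1, Bop1 and Wdr12 were not tested against each other.

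**Figure D2:**
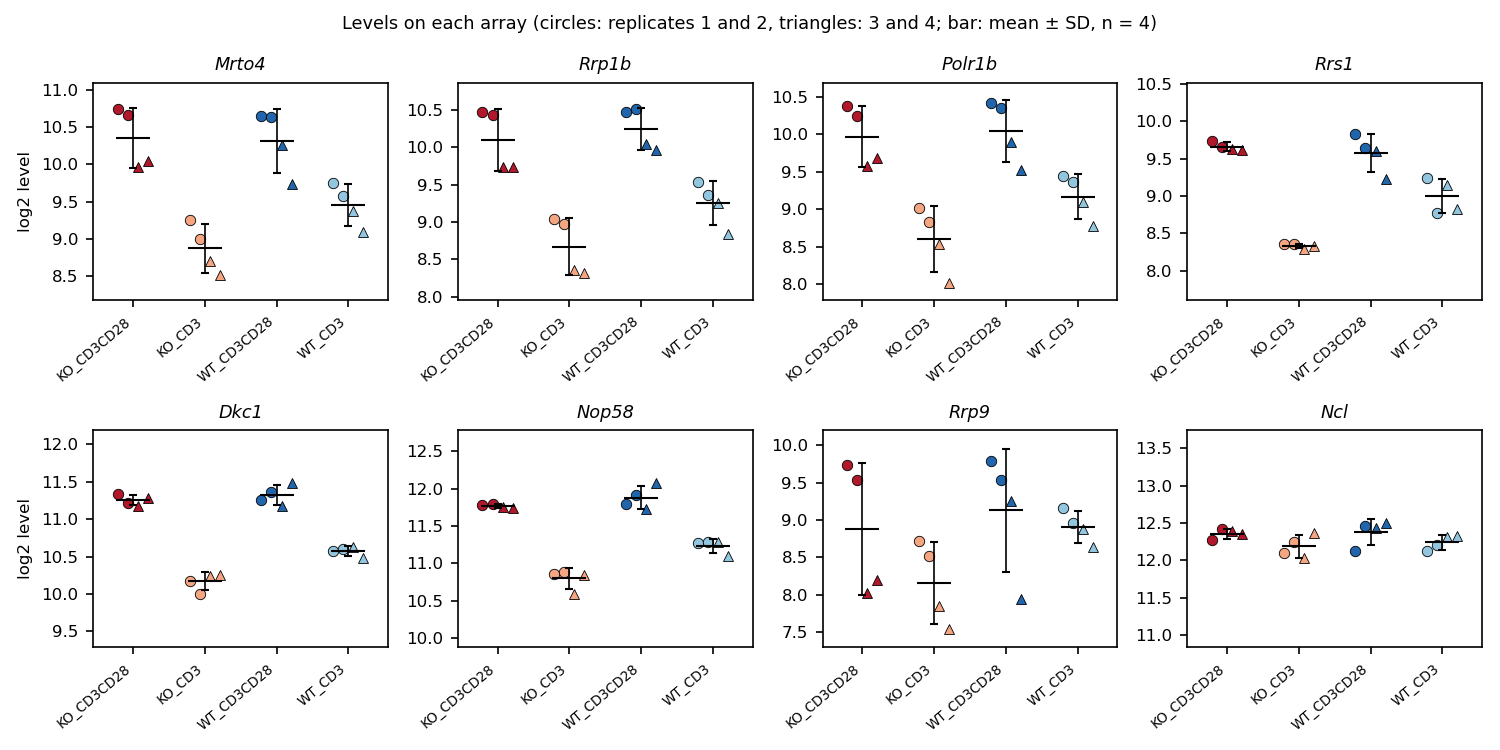
log2 signal on each array for 8 of the genes in the 4 groups, with the mean and SD of 4 arrays. All panels span the same number of log2 units. Rrp1b parts by stimulus in both genotypes and Mrto4 in knockout. All KO_CD3 arrays of Rrs1, Dkc1 and Nop58 lie below those of the other groups. Rrp9 parts by replicate set most clearly in knockout, and the groups of Ncl overlap.

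The next question was whether loss of Dec1 changed these genes when cells received anti-CD3 alone. Estimates were nearly all lower in knockout: 39 of 40 lay below 0, against 44.6% of all genes, with a median of -0.34 against 0.03 over all genes. Single estimates ran from -0.76 for Pes1 to 0.24 for Wdr12. Of the 40 genes 3 passed the test, all lower (Rrs1, Nop58 and Dkc1), where 0.749% of all genes were lower and 0.28% higher. Blocking on the replicate number brought this to 24 lower and 0 higher, with 6.56% of all genes lower and 5.34% higher. Same-numbered KO_CD3 and WT_CD3 arrays had opposite Xist status in replicates 1, 2 and 4, and the block does not adjust for that. The KO_CD3 arrays lay wholly below the WT_CD3 arrays for 12 genes, as was so for 6.63% of all genes.

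Rrs1 fell to a mean of 8.33 ± 0.03 in KO_CD3, against 9.00 ± 0.23 in WT_CD3, a change of -0.66 ± 0.12 (adjusted p = 0.0202, 0.00328 with the block). Its values on the arrays are given above, and each KO_CD3 array lay below each WT_CD3 array. Nop58 had 10.86, 10.88, 10.59 and 10.85 in KO_CD3 and 11.27, 11.29, 11.28 and 11.10 in WT_CD3. Its change was -0.44 ± 0.09 (adjusted p = 0.0351, 0.0109 with the block), and the groups did not overlap. With CD28 engagement Nop58 had 11.78, 11.80, 11.75 and 11.74 in KO_CD3CD28 and 11.79, 11.92, 11.72 and 12.07 in WT_CD3CD28. These overlapped, and its CD28 effect was 0.97 ± 0.09 in knockout and 0.64 ± 0.09 in wild type. Dkc1 fell by 0.40 ± 0.08 (adjusted p = 0.0351, 0.0133 with the block), also without overlap.

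In the fit without the block the fall passed for 1 box C/D, 1 box H/ACA and 1 large subunit gene. Over all genes 6.56% were lower with the block. With the block the fall passed for 3 of 3 box C/D genes and 1 of 4 box H/ACA genes. It also passed for 2 of 4 nucleolar chaperone and helicase genes and 1 of 3 RNA polymerase I genes. With the block 9 of 13 small subunit genes and 8 of 13 large subunit genes passed too. Among those that passed only with it were Pes1 at -0.76 (adjusted p = 0.101 without it and 0.00765 with it), Ebna1bp2 at -0.59 (0.0775 and 0.00326), Mrto4 at -0.58 (0.144 and 0.00428), Rrp1b at -0.58 (0.133 and 0.00398) and Polr1b at -0.57 (0.17 and 0.00421). Ncl at -0.05, Nop10 at -0.07 and Npm1 at -0.10 were closest to 0 and passed in neither fit. Taken by replicate number, the median difference was -0.28, -0.37, -0.37 and -0.28, with 39, 38, 39 and 34 of 40 genes below 0. Over all genes the medians were -0.01, 0.03, 0.04 and 0.04, with 51.3%, 45.1%, 42.9% and 45.0% below 0. The difference was below 0 in each of the 4 numbers for 34 genes, against 17.8% of all genes.

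The calls depended on which arrays entered. Replicates 1 and 2 alone gave 11 genes lower (6.57% of all genes) with a median of -0.32, and replicates 3 and 4 alone gave 0 (0% of all genes) with the same median. Xist was high in KO_CD3 replicates 2 and 4 (10.44 and 11.10) and low in replicates 1 and 3 (5.34 and 5.42), and among WT_CD3 arrays it was high only in replicate 1 (10.95, against 5.09 to 5.67). With high or low Xist as a term, chosen after seeing the data, 1 gene (Rrs1) remained past the threshold, at -0.70 (adjusted p = 0.0262). That term was fitted without the block, and the 2 were not fitted together. Leaving out WT_CD3 replicate 1, WT_CD3 replicate 3 or KO_CD3 replicate 2 each gave 0, leaving out KO_CD3 replicate 1 or WT_CD3 replicate 2 each gave 1, and leaving out WT_CD3CD28 replicate 4, which enters through the shared spread, gave 5. Median centring gave 5, with 4.98% of all genes that passed higher, against 27.2% before it, and repeating the quantile normalization gave 1. Myc moved in the same direction, with 10.79, 10.90, 10.41 and 10.52 in KO_CD3 and 11.40, 11.41, 11.24 and 10.95 in WT_CD3, a change of -0.60 ± 0.13 (adjusted p = 0.0421, 0.00289 with the block). With CD28 engagement Myc rose by 1.10 ± 0.13 in knockout (adjusted p = 3.83e-06) and by 0.62 ± 0.13 in wild type (adjusted p = 0.00146). Mki67 differed by -0.92 ± 0.27 (adjusted p = 0.0917, 0.0102 with the block). The part of Myc, of cell division or of Xist status in the change of these genes was not tested.

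With anti-CD3 plus anti-CD28, no gene of the 40 passed between genotypes by limma, with or without the block, and 0 had an unadjusted p under 0.05. Over all genes 0.00609% passed, which is Bhlhe40 itself, while 2.75% were higher and 0.572% lower at an unadjusted p under 0.05. The median difference was -0.05 against 0.02 over all genes, and single estimates ran from -0.25 for Rrp9 to 0.13 for Nip7. The intervals (95%) ranged in all from -1.11 to 0.60, both bounds being those of Rrp9, and that of Rrs1 was -0.16 to 0.33. The groups were apart for 1 gene, Nop10, higher in knockout by 0.09, where 2.11% of all genes were apart in that direction. Median differences by replicate number were 0.03, -0.06, -0.11 and -0.01, and replicates 1 and 2 alone and replicates 3 and 4 alone each gave 0 genes past the threshold, with medians of -0.02 and -0.09.

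**Figure D3:**
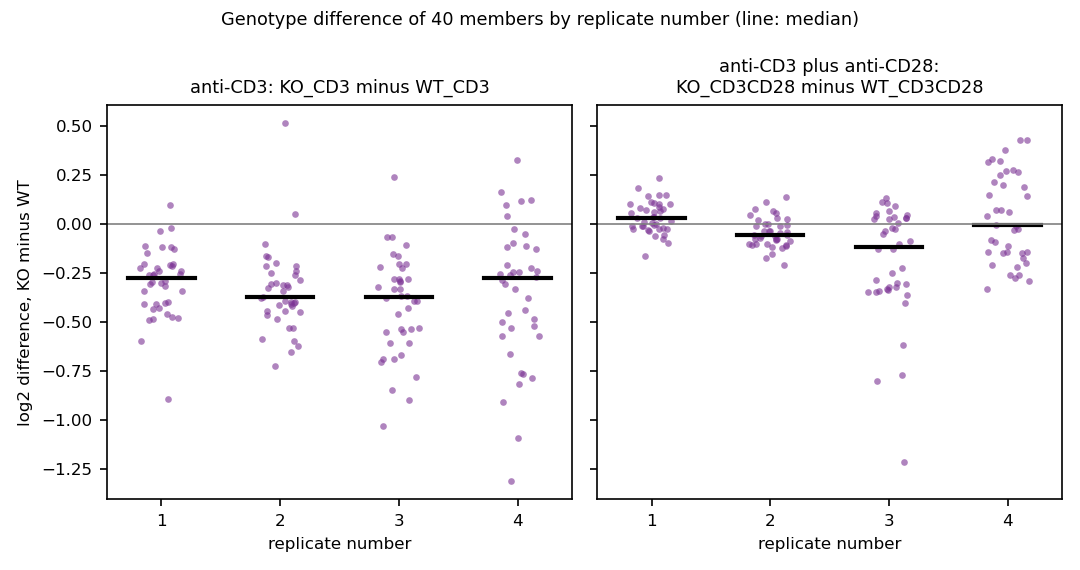
Difference between genotypes on the log2 scale for each of the 40 genes, KO minus WT arrays of the same replicate number, under anti-CD3 (left) and anti-CD3 plus anti-CD28 (right). The line is the median, which lies between -0.37 and -0.28 on the left and between -0.11 and 0.03 on the right.

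Whether the CD28 effect itself differed between genotypes was tested as an interaction, which shares all its arrays with the comparisons above. No gene of the 40, and 0% of all genes, passed by limma with or without the block. Of the 40 genes 39 had a larger estimate in knockout, against 50.3% of all genes, with a median of 0.32 against 0.00 over all genes. An unadjusted p under 0.05 was found for 9 genes, all larger in knockout, where 3.22% of all genes did so. Rrs1 had the largest estimate, 0.75 ± 0.17 (unadjusted p = 0.000329, adjusted p = 0.905), and Wdr12 alone had one below 0, at -0.13 ± 0.19. When replicates 1 and 2 were fitted alone, 80 of all 16427 genes passed, and 0 of these were among the 40. With so few calls over all genes, that 0 tells little about the 40.

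Other genes of the same pathway, which are not among the 42, were counted by list, where 20.4% of all genes rose in knockout and 16% in wild type. Of 12 further genes of RNA polymerase I and its factors, 7 rose with CD28 engagement in knockout and 4 in wild type, and 0 fell. Cd3eap, Twistnb and Polr1c, all subunits of the enzyme, changed by 0.88 ± 0.12, 0.69 ± 0.13 and 1.09 ± 0.21 in knockout. Of 40 further small subunit factors 31 rose in knockout and 26 in wild type, and 0 fell, with medians of 0.86 and 0.51. Mphosph10, Utp18 and Utp6, members of the processome, rose by 1.04 ± 0.09, 0.93 ± 0.08 and 1.12 ± 0.10 in knockout. Of 43 further large subunit factors 35 rose and 1 fell in knockout, and 30 rose and 1 fell in wild type, with medians of 0.63 and 0.49. Rpf2, the partner of Rrs1, rose by 1.24 ± 0.10 in knockout, Ddx18, a helicase, by 0.95 ± 0.09, and Rrp15 by 1.31 ± 0.14. The gene that fell was Nop53, named after its values were seen, at -0.41 ± 0.13 in knockout and -0.56 ± 0.13 in wild type. In the same order of lists, replicates 1 and 2 alone gave 8, 38 and 37 genes in knockout and 6, 35 and 35 in wild type. Replicates 3 and 4 alone gave 3, 27 and 28 in knockout and 2, 16 and 18 in wild type. The same fits called 7682 and 5935 of all 16427 genes in replicates 1 and 2, and 2896 and 2650 in replicates 3 and 4.

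Few ribosomal proteins passed. Of all 16427 genes, 6245 passed in knockout and 4770 in wild type, and 7667 and 6229 had an unadjusted p under 0.05. Of 21 small subunit ribosomal proteins tested, 0 passed in either genotype by limma, 0 in knockout and 2 in wild type had an unadjusted p under 0.05, and the medians were -0.02 and -0.09. With the block 1 passed, Fau in wild type, at -0.43 ± 0.18 (adjusted p = 0.0282, 0.0766 without it), named after its values were seen. Rps12, Rps2 and Rps14 had differences of 0.13 ± 0.08, 0.16 ± 0.10 and -0.18 ± 0.11 in knockout. Of 33 large subunit ribosomal proteins, 2 rose in each genotype, and the medians were 0.03 and -0.05. Rpl14 at 0.60 ± 0.13 and Rpl12 at 0.60 ± 0.15 were those in knockout, and Rpl12 at 0.46 ± 0.15 and Rpl30 at 0.30 ± 0.10 those in wild type. Replicates 1 and 2 alone gave 6 large subunit proteins in knockout and 4 in wild type, and replicates 3 and 4 alone 1 and 0. Neither set gave a small subunit protein. The same sets called 7682 and 5935 of all 16427 genes, and 2896 and 2650. Only 21 of 31 and 33 of 47 listed ribosomal proteins had a probe with a single symbol that passed the filter. The difference between these lists and the biogenesis genes was not tested.

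Under anti-CD3 alone the further genes also had lower estimates in knockout: 9 of 12, 39 of 40 and 42 of 43 in the 3 lists, with medians of -0.17, -0.27 and -0.22, where 44.6% of all genes were below 0. Of these, 1 passed the test, the GTPase Gnl2 at -0.43 ± 0.10 (adjusted p = 0.0483), which did not pass with Xist status as a term (adjusted p = 0.0748). With the block 2, 12 and 15 passed, all lower. Over all genes 0.749% were lower, and 6.56% with the block. Replicates 1 and 2 alone gave 3, 12 and 7 genes past the threshold, and replicates 3 and 4 alone gave 0 in each list. Of all 16427 genes, 1388 passed in replicates 1 and 2 alone and 0 in replicates 3 and 4 alone. Of the 21 and 33 ribosomal proteins, 0 passed with or without the block, and the medians were -0.02 and -0.01. A single large subunit protein passed in replicates 1 and 2 alone.

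**Figure D4:**
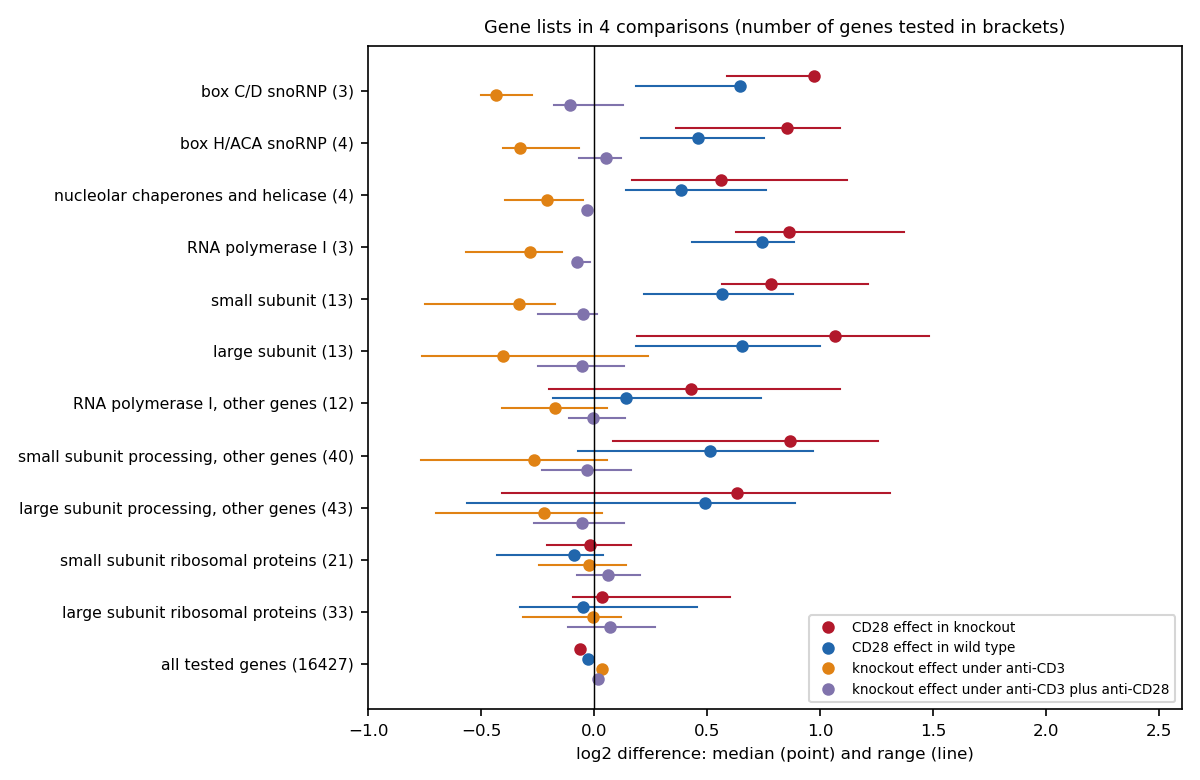
Median (point) and range (line) of the log2 difference for the role groups of the 40 genes, the further pathway genes, the ribosomal proteins and all tested genes (median only). The medians of the CD28 effect in knockout run from 0.43 to 1.06 over the biogenesis lists and are -0.02 and 0.03 for the ribosomal proteins.

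The changes were also set out by the E-box near the start. The CD28 effect in knockout had a median of 0.86 over the 9 genes with CACGTG and 0.98 over the 26 without, and in wild type 0.56 and 0.65. The difference between genotypes under anti-CD3 had medians of -0.33 and -0.34. These medians are descriptions, and the 2 sets were not tested against each other.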

How the data were processed

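RNA of 16 arrays, 4 in each of 4 groups taken from the labels, was measured on an expression array. The authors deposited log2 values for 35556 probes, produced by RMA per the submitters' processing notes. RMA corrects background, brings arrays to one distribution of intensities and summarizes probe sets, so a shift shared by all probes would be removed. Array medians of the deposited values still differed, from 6.80 to 6.97 with anti-CD3 alone and from 6.64 to 6.81 with both antibodies. The probe table held 23410 probes, 21789 with 1 symbol and 1621 with several. Probes with 1 symbol were kept above the 25th percentile of their array on at least 4 arrays, leaving 17930 probes, and the brightest stood for its gene. Group means were fitted over all 16 arrays with limma 3.58.1 (R 4.3.3), and p-values were adjusted by Benjamini-Hochberg over 16427 genes, with a threshold of 0.05. The fit was tested on simulated data. The number of arrays limits the precision. Same-numbered replicates deviated from their group means together in every pair (r = 0.16 to 0.59, median 0.31), so the replicate number was also fitted as a block. Other numbers of the same set (1 and 2, or 3 and 4) gave -0.06 to 0.67 (median 0.16), above the same-number value in some pairs, and numbers of different sets -0.66 to 0.03, so the block also takes up the difference between the sets. Described in full are the largest changes that passed in each comparison (up to 6 a direction), the extremes of each role group, the 3 smallest p of each further list, Bhlhe40 and Myc. The genes and lists were chosen with earlier results of these data known. Alternatives covered scaling, filter, probe choice, variance model, array weights, the block, the replicate sets, each array left out and, added later, Xist status. Sequences are from RefSeq (GRCm38.p6). Summaries and figures used Python 3.11.15, pandas 2.3.3, numpy 2.4.6 and matplotlib 3.10.9.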

Additional observations from a re-analysis of the deposited data

Results flagged for a closer look

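In 8 of 160 tests of 4 arrays each, 1 array lay below the rest of its group for a gene by a gap that was large against the range of that group, and chance alone gives about 1 in 20, or 8. The array labelled KO_CD3 replicate 3 had 10.59 for Nop58, where the next lowest had 10.85, and KO_CD3 replicate 2 had 10.14 for Bms1, next to 10.30. In KO_CD3CD28 replicate 4, Nop10 was 12.14, next to 12.18, in a group with a narrow range. WT_CD3CD28 replicate 3 had 10.91 for Bms1 and 10.07 for Noc3l, below 11.05 and 10.34. WT_CD3 replicate 4 was lowest for Nop58 (11.10, next to 11.27), Tsr1 (10.77, next to 10.94) and Rrp12 (7.74, next to 8.01). These were 6 different genes, and all 8 values were the lowest of their group.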

How the results depend on the processing

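The counts of the 40 genes changed by CD28 engagement kept within 1.5 times under every alternative run, from 29 to 38 in knockout and from 21 to 36 in wild type, and the counts between genotypes with both antibodies and for the interaction stayed at 0. Under anti-CD3 alone the count between genotypes was 3, and it stayed at 3 with array weights. It was 5 with arrays centred on their medians, 1 with quantile normalization repeated, 24 with the replicate block and 1 with Xist status. It was 11 in replicates 1 and 2, 0 in replicates 3 and 4, and 0 to 5 with each array left out. Over all genes that count was 169, and it was 261 with centring, 597 with array weights, 1954 with the replicate block, 46 with Xist status, 1388 and 0 in the 2 replicate sets, and 7 to 452 with arrays left out. Replicates 1 and 2 alone gave 2 genes between genotypes with both antibodies (1 in the full fit) and 80 for the interaction (0), while replicates 3 and 4 alone gave 2896 genes for the CD28 effect in knockout (6245) and 2650 in wild type (4770). Among all genes that passed between genotypes under anti-CD3, the share that was higher was 27.2%, and it was 44.9% with the replicate block and 6.52% with Xist status. Of 5460 values of single genes under alternatives, 111 had the other sign, all of them where neither value passed and with at most 0.25 in the full fit, 74 lost and 91 gained the threshold. With the replicate block the counts were 38 in knockout and 32 in wild type for the CD28 effect, and it made no call among the 40 genes for the genotypes with both antibodies or the interaction. The cause was not tested.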
